A study of Homo sapiens with 4 samples.

Results

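The genes described here are 10 transcription factors of basal and luminal mammary identity: TP63, SOX9, GATA3, FOXA1, ESR1, ELF3, EHF, ELF5, GRHL2 and KLF5. They were taken by name from the gene column of the deposited tables, where each has 1 row, out of 60487 genes in all. RNA came from HCC1937, an established human breast cancer line that is BRCA1 -/- by its labels. The 4 groups were vector cells (BRCA1 -/-) under the solvent DMSO, vector cells under OTX-015, cells with wild-type BRCA1 (wtBRCA1) under DMSO, and wtBRCA1 cells under OTX-015, with 1 library each. OTX-015 (birabresib) blocks the bromodomains of the BET proteins, which read acetylated histones. Its dose and duration, and whether the wtBRCA1 line is a clone or a pool, are not given in the sources used here. The 2 lines differ in whatever else separates them besides BRCA1, so an effect of BRCA1 and an effect of the line cannot be told apart.

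Mammary epithelium has a basal layer next to the stroma and a luminal layer that lines the ducts and makes milk. Basal identity rests on p63, the product of TP63. Luminal cells that respond to oestrogen use the receptor encoded by ESR1 together with its pioneer factors GATA3 and FOXA1, and luminal progenitors that turn to milk production use ELF5. ELF3, EHF, GRHL2 and KLF5 act in many epithelia, where they keep junction and differentiation genes on, and SOX9 marks progenitor cells.

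The values are FPKM, a fragment count scaled by transcript length and library size, so levels can be compared between genes within a library. Sequencing depth is unknown and no value has a replicate. FPKM values summed to between 909314 and 1496107 per library, and the 10 highest genes took 15.3% to 17.4% of that sum under DMSO and 33.8% to 39.2% under OTX-015. BRCA1 was at 37.2 and 40.8 FPKM with the vector under DMSO and OTX-015 and at 171 and 2712 with wtBRCA1, higher in the line labelled as restored in both treatments. Within the wtBRCA1 line BRCA1 was far higher under OTX-015 than under DMSO. The 2 line comparisons thus differ in BRCA1 level, and so do the 2 wtBRCA1 libraries compared for OTX-015. What part this had in the results below was not tested. The epithelial identity of the cells showed in EPCAM (377 to 443 FPKM) and CDH1 (101 to 274) in all 4 libraries. Of 7 fibroblast markers 5 were listed at 0 throughout, of 5 leukocyte markers 2, of 4 endothelial markers 2 and of 5 contractile myoepithelial markers 1 (CNN1). Their summed levels were 2.11 to 9.78, 15.6 to 44.6, 0.67 to 7.03 and 9.34 to 19.7 FPKM, and their part in the results below was not tested. Nearly all of the fibroblast sum was COL1A1 (1.86 to 9.78 FPKM) and of the leukocyte sum CD68 (15.5 to 44.5), while the other leukocyte markers stayed under 1 FPKM. In RNA from a whole culture, fewer cells of a type and less RNA per cell cannot be told apart.

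Differences between libraries are given on the scale log2(FPKM + 1), on which the change of a low gene is understated. A pair of libraries has no test and is called 2-fold apart from 1 unit on this scale. The fit over all 4 libraries, with limma, has line and treatment as terms. Its adjusted p measures how alike a difference is across the other factor, not the spread between cultures. Genes at 1 FPKM or more in at least 1 library were kept (18304), and all 10 factors were among them. TP63 passed only through the wtBRCA1 DMSO library, ELF5 only through the vector libraries and ESR1 only through the DMSO libraries, so a difference between those libraries and the rest is partly built in. The same holds for 8 of the 34 genes of the lists below that were called for line (CD14, CLDN3, DSC3, FOXP1, GRHL3, ID4, RERG and TFF1) and for 2 of the 13 called for OTX-015 (GABRP and SPRR1A).

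None of the 10 factors passed the limma adjusted p of 0.05, either for line or for treatment. Over all genes kept, 4.75% were called higher and 3.34% lower in the wtBRCA1 line, and 3.57% were called higher and 2.58% lower under OTX-015. At an unadjusted p under 0.05 the count for line was 1 higher (GRHL2) and 2 lower (GATA3 and ELF5) of 10, against 13.1% and 10.2% of all genes. For OTX-015 it was 0 higher and 3 lower (TP63, SOX9 and EHF), against 12.5% and 10.2%. The number 2-fold apart with the same sign in both comparisons was 0 higher and 1 lower (ELF5) for line, where 6.11% and 4.44% of genes were. For OTX-015 it was 0 higher and 1 lower (EHF), where 4.58% and 4.43% of genes were.

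ELF3 was the most abundant factor in every library, above 89.2% to 95.9% of the genes kept, and EHF or GRHL2 came next. ESR1, ELF5 and TP63 took the last 3 places with the vector under DMSO, and ESR1 did not exceed 2 FPKM anywhere. Several neighbours in this order lay close together, such as GRHL2 and EHF with the vector under OTX-015, at 20.8 and 20.7 FPKM, and without replicates such neighbours are not separated. The wtBRCA1 OTX-015 library held the highest value of the 4 for none of the 10 factors, against 27.4% of all genes kept. The highest of the 4 values fell with the vector under DMSO for GATA3, FOXA1, ESR1 and EHF, and with wtBRCA1 under DMSO for TP63, SOX9, GRHL2 and KLF5. These were 4 of 10 factors in each library, against 22.5% and 25.1% of all genes kept.

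**Figure D1:**
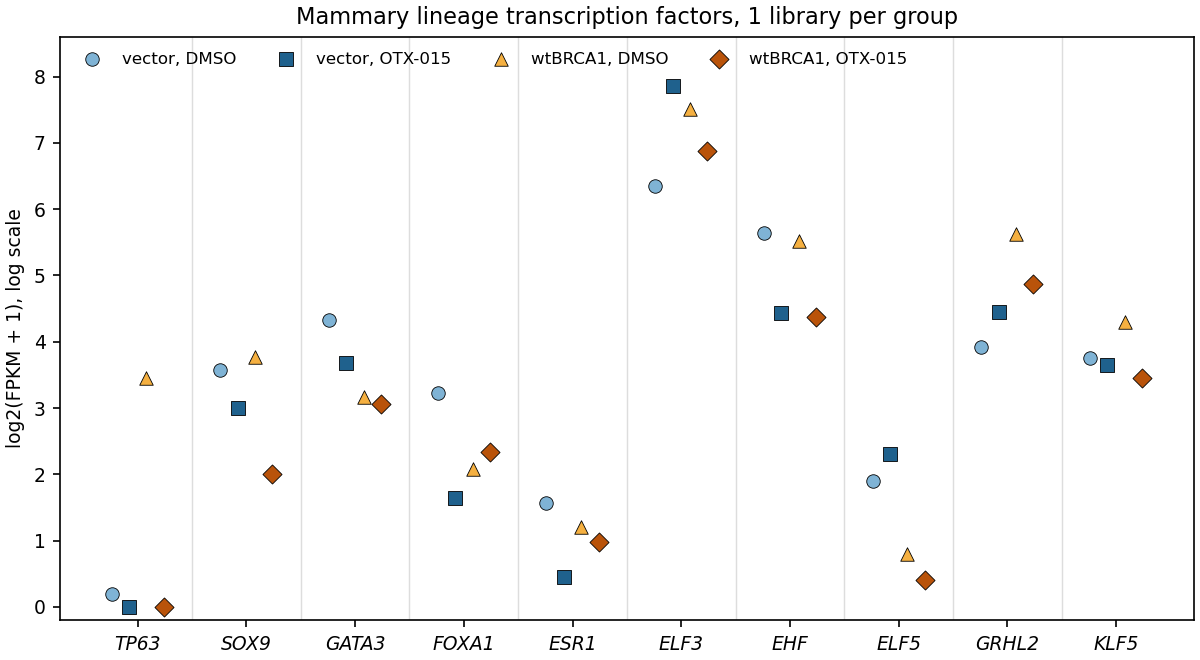
Level of each factor as log2(FPKM + 1) on the vertical axis, 1 point per library and no error since each group has 1 library. ELF3 is the highest factor in all 4 libraries, and TP63 is above 1 FPKM only with wtBRCA1 under DMSO.

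TP63 (ENSG00000073282, chromosome 3, 189631416 to 189897279, plus strand in GENCODE 29) encodes p63, the master factor of basal epithelium. It was at 0.147 FPKM with the vector under DMSO, 0 with the vector under OTX-015, 9.93 with wtBRCA1 under DMSO and 0 with wtBRCA1 under OTX-015. One library thus stood far above the other 3, and the 2 libraries listed at 0 allow no fold. Between lines it differed by 3.25 log2 in the DMSO pair and 0 in the OTX-015 pair, with a limma line effect of 1.63 ± 0.76 (SE, adjusted p = 0.238). Under OTX-015 the difference was -0.20 with the vector and -3.45 with wtBRCA1, with an effect of -1.82 ± 0.76 (SE, limma adjusted p = 0.192). Both large differences rest on the wtBRCA1 DMSO library. A pattern of 5 FPKM or more in that library and less than 1 in the other 3, a rule set after the values of TP63 were seen, occurred in 42 of 18304 genes kept (0.229%). A listed 0 need not mean absence. In the wtBRCA1 OTX-015 library 74 protein-coding genes were listed at 0 that reached 5 FPKM or more elsewhere, and in the vector OTX-015 library 138. Gene-level values do not separate the long and the N-terminally truncated p63 transcripts.

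Of 34 genes linked to p63 in basal epithelium, 14 rose in the wtBRCA1 line, among them keratins and desmosome genes. Another 2 fell and 18 did not pass in the limma fit for line, with a median of 1.36 log2 against 0.05 over all genes kept. Of all genes kept 4.75% rose and 3.34% fell. The list was chosen with earlier results of these data known, so its direction is no independent evidence. Over all the lists used here, 34 genes passed for line and 13 for OTX-015, of which 6 and 0 kept the call in limma without the mean-variance trend. S100A2, a calcium-binding protein of the S100 family, was at 16.1 and 1.91 FPKM with the vector under DMSO and OTX-015 and at 572 and 412 with wtBRCA1. The basal keratin KRT5 was at 29.4 and 23.2 FPKM with the vector and at 980.3 and 573 with wtBRCA1. DSC3, a desmosomal cadherin, was at 0 and 0.0755 FPKM with the vector and at 18.8 and 8 with wtBRCA1. These 3 genes were higher in the wtBRCA1 library in each treatment, by 3.69 log2 (DSC3) to 6.11 log2 (S100A2) in the limma fit, with the difference in DSC3 partly built in by the filter. The secreted ligand BMP7 (-2.61 log2) and IGFBP3 (-1.20), which binds insulin-like growth factors, fell. KRT14, the partner of KRT5 in the basal layer, was at 0.438 and 2.82 FPKM with the vector and at 8.53 and 5.16 with wtBRCA1 (limma adjusted p = 0.0804).

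In the wtBRCA1 OTX-015 library, where TP63 was listed at 0, KRT5 and S100A2 were thus above both vector libraries. Both were named for large effects in the additive fit, which favours genes alike in both treatments. Over the 34 genes the median line difference was 1.62 log2 under DMSO and 0.75 under OTX-015 (0.04 and 0 over all genes kept). The median OTX-015 difference was -0.03 log2 with the vector and -0.67 with wtBRCA1 (0 over all genes in each). A link of these medians to TP63 was not tested. KRT15 and MIR205HG were lower under OTX-015 in both lines, and in each treatment they were higher with wtBRCA1 than with the vector. KRT15 was at 41.1 and 11.3 FPKM with the vector under DMSO and OTX-015 and at 422 and 19.5 with wtBRCA1, an OTX-015 effect of -3.07 ± 0.52 log2 (SE, limma adjusted p = 0.0143). MIR205HG, the host transcript of the epithelial microRNA miR-205, was at 8.04 and 0.567 FPKM with the vector and at 43.4 and 1.77 with wtBRCA1 (-3.27 ± 0.44 log2, SE, limma adjusted p = 0.0064). These were the 2 of 34 that fell under OTX-015. The 2 that rose were the receptor FGFR3 (1.44 log2) and the 14-3-3 protein SFN (1.31), and 30 did not pass. The list median was -0.39 log2 against 0.03 over all genes kept, of which 3.57% rose and 2.58% fell.

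**Figure D2:**
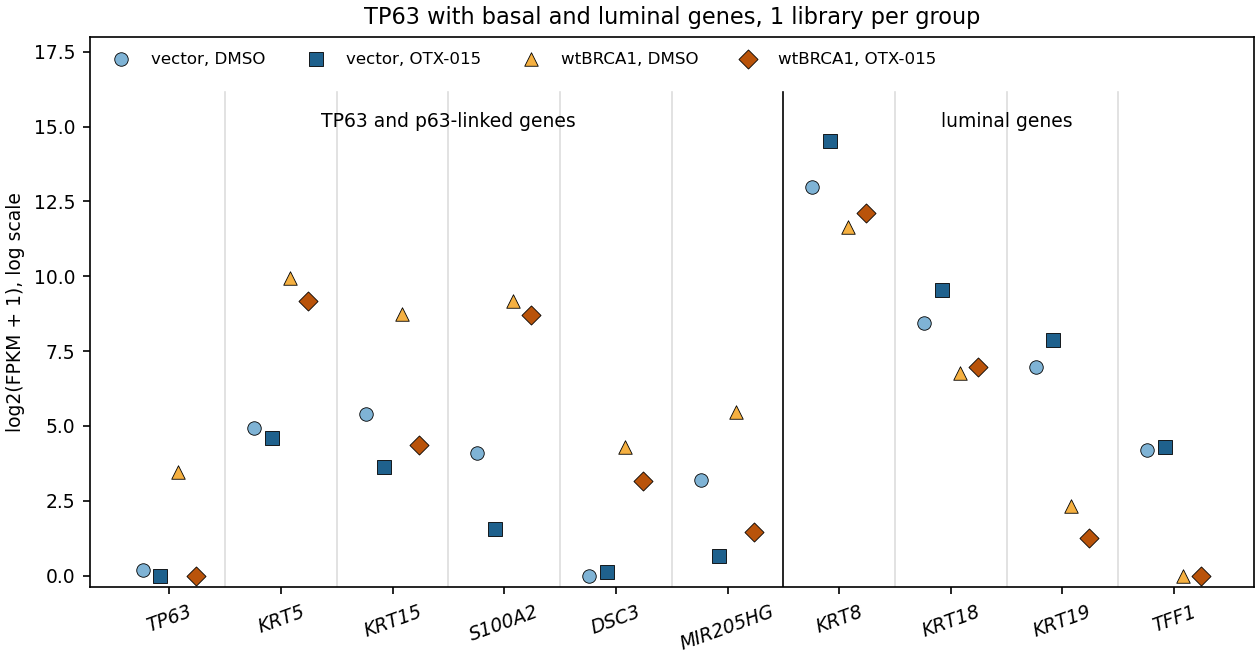
Level of TP63, 5 p63-linked genes and 4 luminal genes as log2(FPKM + 1) on the vertical axis, 1 point per library. KRT5, S100A2 and DSC3, named for their large line effects, are above both vector libraries in both wtBRCA1 libraries. TP63 is high in the DMSO library of the wtBRCA1 line alone. KRT15 and MIR205HG are highest in that library too, but under OTX-015 with wtBRCA1 they lie below the vector DMSO library.

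SOX9 (ENSG00000125398, chromosome 17, 72121020 to 72126420, plus strand), an HMG-box factor of progenitor cells, was at 10.9 FPKM with the vector under DMSO and 6.97 under OTX-015. With wtBRCA1 it was at 12.7 and 3.01 FPKM. The DMSO libraries were the 2 highest, and the OTX-015 library of each line was lower, by -0.57 and -1.77 log2. The effect over both lines was -1.17 ± 0.41 log2 (SE, limma adjusted p = 0.127). Between lines SOX9 differed by 0.21 log2 under DMSO and -0.99 under OTX-015. Of 11 genes linked to SOX9, mostly cartilage collagens and their partners, only 2 were expressed enough to be tested. COL9A2 fell under OTX-015, from 8.9 to 0.366 FPKM with the vector and from 6.79 to 1.79 with wtBRCA1 (-2.17 ± 0.47 log2, SE, limma adjusted p = 0.0294). The other, COL9A3, did not pass (-0.61 ± 0.54 log2, SE, limma adjusted p = 0.55). Its OTX-015 differences were opposite in the 2 lines, -1.62 log2 with the vector and 0.39 with wtBRCA1.

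GATA3, FOXA1 and ESR1, the trio of hormone-responsive luminal cells, each had their highest level with the vector under DMSO, as did EHF. Of all genes kept, 22.5% were highest in that library. The zinc finger factor GATA3 (ENSG00000107485, chromosome 10, 8045378 to 8075203, plus strand) was at 19.1 and 11.8 FPKM with the vector under DMSO and OTX-015. With wtBRCA1 it was at 8.02 and 7.35 FPKM, so that both libraries of this line lay below both of the vector line. The line difference was -1.16 log2 under DMSO and -0.62 under OTX-015, with an effect of -0.89 ± 0.36 (SE, limma adjusted p = 0.172). Within lines, OTX-015 differed from DMSO by -0.65 and -0.11 log2.

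The forkhead factor FOXA1 (ENSG00000129514, chromosome 14, 37589984 to 37596059, minus strand), which opens chromatin for the oestrogen receptor, was at 8.32 FPKM with the vector under DMSO and 2.13 under OTX-015. With wtBRCA1 it was at 3.25 and 4.03 FPKM. The vector line thus held both the highest and the lowest library, with a log2 difference under OTX-015 of -1.57 with the vector and 0.25 with wtBRCA1. The line difference turned likewise, from -1.13 under DMSO to 0.68 under OTX-015. The limma effects were -0.23 ± 0.49 for line (SE, adjusted p = 0.816) and -0.66 ± 0.49 for OTX-015 (SE, limma adjusted p = 0.473).

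ESR1 (ENSG00000091831, chromosome 6, 151656691 to 152129619, plus strand), the oestrogen receptor alpha gene, was at 1.97 and 0.369 FPKM with the vector and at 1.3 and 0.98 with wtBRCA1 under DMSO and OTX-015. All 4 values were low, and vector cells under OTX-015 were lowest. The log2 differences under OTX-015 were -1.12 with the vector and -0.22 with wtBRCA1 (effect -0.67 ± 0.54, SE, limma adjusted p = 0.521). Between lines ESR1 differed by -0.37 log2 under DMSO and 0.53 under OTX-015. The deposited locus of ESR1 also holds SYNE1 and the clone-named antisense gene RP3-443C4.2. Both were highest with wtBRCA1 under DMSO, at 0.925 and 1.39 FPKM, and how reads were divided among them was not tested. Of 32 genes listed as luminal and linked to GATA3, FOXA1 and ESR1, 10 were under 1 FPKM in all 4 libraries, among them GREB1 and TFF3. Of the 22 tested, 4 fell, 1 rose and 17 did not pass for line, with a median of -0.58 log2 against 0.05 over all genes. Of all genes kept 3.34% fell and 4.75% rose.

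Those that fell in the wtBRCA1 line were keratins of luminal cells and the secreted trefoil peptide TFF1. KRT19 was at 124 and 234 FPKM with the vector under DMSO and OTX-015 and at 3.97 and 1.39 with wtBRCA1. KRT18 was at 349 and 744 FPKM with the vector and at 108 and 125 with wtBRCA1, and its partner KRT8 at 8160 and 23339 and at 3185 and 4476. TFF1 was at 17.5 and 18.4 FPKM with the vector and listed at 0 in both wtBRCA1 libraries. All 4 genes were lower in the wtBRCA1 library in each treatment, as GATA3 and ELF5 were. RERG, a growth-inhibiting small GTPase, rose (3.54 log2), from 0.383 and 0 FPKM with the vector to 47.1 and 2.87 with wtBRCA1. Its line difference was 5.12 log2 under DMSO and 1.95 under OTX-015, so the effect rests largely on the wtBRCA1 DMSO library. Under OTX-015, 1 gene of this list rose, KRT8 (1.0 log2), and 2 fell, the mucin MUC1 (-1.80) and the GABA receptor subunit GABRP (-2.00). Whether each listed gene is luminal in these cells was not tested. The list median was 0.02. Of all genes kept 3.57% rose and 2.58% fell.

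ELF3, EHF and ELF5 belong to the epithelium-specific branch of the ETS family, whose members bind DNA around the core GGAA. ELF5 and EHF are neighbours on chromosome 11, with 107 kb between the end of the ELF5 locus and the start of EHF. They were the only 2 of the 10 factors that were 2-fold apart with the same sign in both comparisons, ELF5 for line and EHF for OTX-015. Stretches upstream of their RefSeq starts (GRCh38.p14), free of GENCODE 29 exons, are shown because of this contrast between neighbours, 5′ to 3′ on the strand of the gene, with GGAA or its reverse complement TTCC in capitals. For ELF5 the stretch is chr11:34511829-34511974, minus strand, 250 to 105 bases before the start. For EHF it is chr11:34624007-34624256, plus strand, 250 to 1 bases before the first of its listed starts. Both lie inside the GENCODE 29 bounds of their gene, which has transcripts with an earlier start.
ELF5: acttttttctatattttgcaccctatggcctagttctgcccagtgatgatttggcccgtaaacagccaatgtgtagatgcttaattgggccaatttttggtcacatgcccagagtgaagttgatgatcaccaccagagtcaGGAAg
EHF: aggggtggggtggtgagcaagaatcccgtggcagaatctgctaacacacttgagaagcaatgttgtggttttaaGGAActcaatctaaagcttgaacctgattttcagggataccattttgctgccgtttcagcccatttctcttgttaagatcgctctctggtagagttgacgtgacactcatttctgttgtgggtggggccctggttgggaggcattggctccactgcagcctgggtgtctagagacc

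Each stretch held 1 GGAA on either strand, as 79.6% of 35116 RefSeq promoters held at least 1 in the 146 bases matching ELF5 and 92.7% in the 250 matching EHF. The letters GATA, read on both strands, occurred 0 times before ELF5 and 1 time before EHF, and at least once in 33.8% and 45.6% of promoters. TATAAA occurred in neither, and in 6.17% and 10.7% of promoters. Their GC content was 44.5% and 50.0%, above that of 24.5% and 31.9% of promoters. These matches are letters in a window and show no binding.

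EHF (ENSG00000135373, chromosome 11, 34621093 to 34661057, plus strand) was at 48.7 FPKM with the vector under DMSO and 20.7 under OTX-015, and at 44.8 and 19.7 with wtBRCA1. Both DMSO libraries lay above both OTX-015 libraries, and the lines differed by -0.12 log2 under DMSO and -0.07 under OTX-015. Its level under OTX-015 was lower by -1.19 log2 with the vector and -1.14 with wtBRCA1, an effect of -1.17 ± 0.32 (SE, limma adjusted p = 0.0632). Over 9 alternatives the limma adjusted p ranged from 0.00706, with no filter on low values, to 0.49. In the fit with no filter limma warned about its residual variances. The lowest adjusted p of the other alternatives was 0.0644, with robust empirical Bayes. The line effect was -0.09 ± 0.32 log2 (SE, limma adjusted p = 0.89).

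ELF5 (ENSG00000135374, chromosome 11, 34478793 to 34513805, minus strand), the factor of the milk-forming lineage, was at 2.73 and 3.93 FPKM with the vector under DMSO and OTX-015. With wtBRCA1 it was at 0.741 and 0.33 FPKM, below both vector libraries. The line difference was -1.10 log2 under DMSO and -1.89 under OTX-015, with an effect of -1.49 ± 0.50 (SE, limma adjusted p = 0.102). With a pseudocount of 5 the effect was -0.59, and at a filter of 5 FPKM the gene was not kept. Under OTX-015 it differed by 0.40 log2 with the vector and -0.39 with wtBRCA1. Of 17 luminal progenitor and milk genes, 8 were under 1 FPKM throughout, among them the caseins CSN1S1, CSN2 and CSN3 and the receptor KIT. Of the 9 tested for line, 2 rose and 1 fell, where 4.75% and 3.34% of all genes kept did. The endotoxin co-receptor CD14 (2.99 log2) and the iron-siderophore carrier LCN2 (2.17) rose, and the aldehyde dehydrogenase ALDH1A3 (-1.53) fell. The median of the 9 was 0.58 log2 for line and 0.40 for OTX-015. Under OTX-015 1 of the 9 rose, the protease inhibitor SLPI (1.39), where 3.57% of all genes did.

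ELF3 (ENSG00000163435, chromosome 1, 202007945 to 202017188, plus strand), which is induced by inflammatory signals in epithelia, had opposite differences in the 2 lines. With the vector its level was 80.9 FPKM in the DMSO library and 229.8 in the OTX-015 library. With wtBRCA1 the levels were 181 and 116 FPKM in that order. The lowest and the highest library were thus both of the vector line, and the wtBRCA1 libraries lay between them. OTX-015 differed from DMSO by 1.50 log2 with the vector and -0.64 with wtBRCA1, so the responses were -2.14 apart, and the line difference was 1.15 under DMSO and -0.99 under OTX-015. Responses at least 2 log2 units apart occurred in 2 of the 10 factors (TP63 and ELF3) and in 5.47% of all genes kept. The limma effects, which average over the other factor, were 0.08 ± 0.43 for line (SE, adjusted p = 0.929) and 0.43 ± 0.43 for OTX-015 (SE, limma adjusted p = 0.613). The deposited locus of ELF3 also holds the aminopeptidase gene RNPEP (105 to 176 FPKM) and the clone-named RP11-465N4.5 (18.6 to 36.1) and RP11-465N4.4 (3.64 to 5.22), and how reads were divided among them was not tested.

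**Figure D3:**
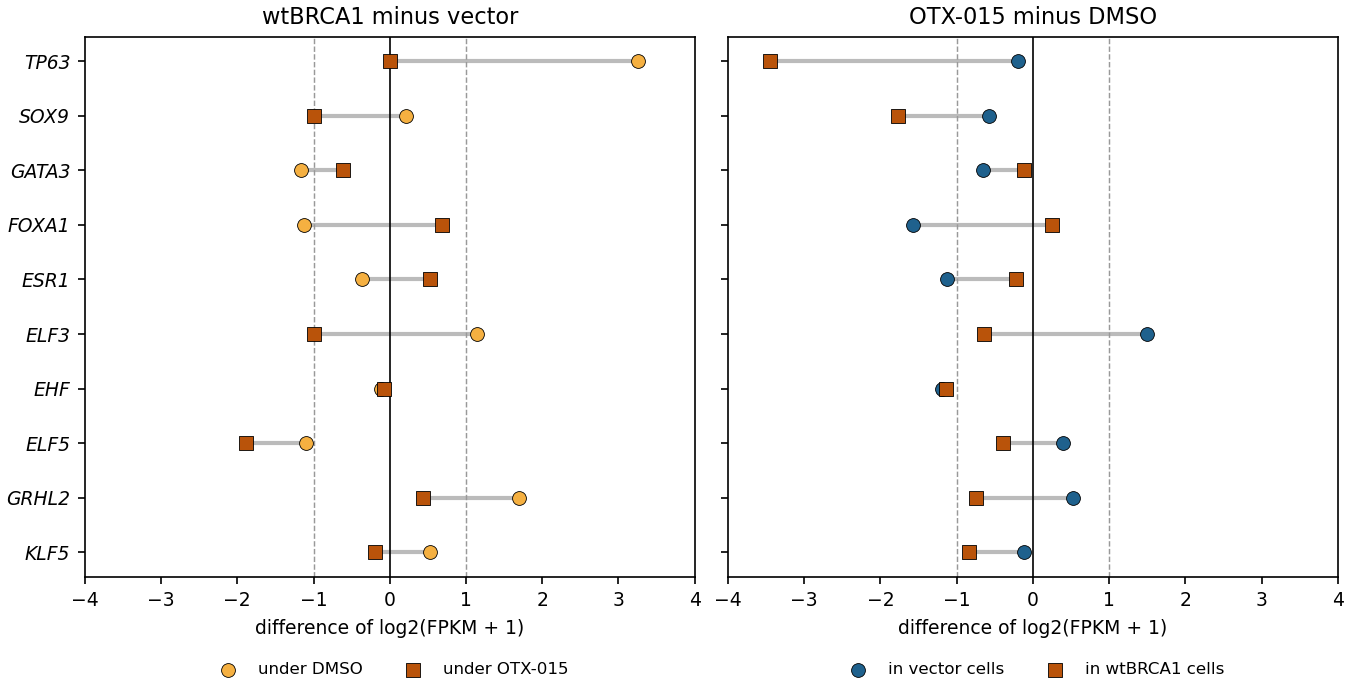
Differences of log2(FPKM + 1) between pairs of libraries, wtBRCA1 minus vector on the left and OTX-015 minus DMSO on the right, with a line joining the 2 comparisons of a factor and dashed lines at 1 unit. EHF has nearly the same OTX-015 difference in both lines (-1.19 and -1.14), and ELF3 has opposite ones (1.50 and -0.64).

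The grainyhead factor GRHL2 (ENSG00000083307, chromosome 8, 101492432 to 101669726, plus strand), which keeps epithelial junction genes active, was at 14.2 and 20.8 FPKM with the vector under DMSO and OTX-015. With wtBRCA1 it was at 48.1 and 28.4 FPKM, above both vector libraries. The line difference was 1.70 log2 under DMSO and 0.43 under OTX-015, with an effect of 1.06 ± 0.38 (SE, limma adjusted p = 0.131). Over 9 alternatives its limma adjusted p ranged from 0.0229, with no filter on low values, to 0.477. The fit with no filter is the one in which limma warned about residual variances. The lowest adjusted p of the other alternatives was 0.141, with robust empirical Bayes. Under OTX-015 it differed by 0.52 log2 with the vector and -0.74 with wtBRCA1. The Krüppel-like factor KLF5 (ENSG00000102554, chromosome 13, 73054976 to 73077542, plus strand), which supports proliferation of epithelial cells, was at 12.5 and 11.5 FPKM with the vector and at 18.6 and 9.92 with wtBRCA1. The line differences were 0.53 and -0.19 log2, and those under OTX-015 were -0.12 and -0.84. Neither effect passed the test (0.17 ± 0.36 for line and -0.48 ± 0.36 for OTX-015, SE, limma adjusted p = 0.815 and 0.484).

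Epithelial genes linked to GRHL2, ELF3, EHF and KLF5 had medians near 0, -0.06 log2 for line and -0.09 for OTX-015. Of 28 tested, 2 rose and 1 fell for line, where 4.75% and 3.34% of all genes kept did. Under OTX-015 2 rose and 1 fell, where 3.57% and 2.58% of all genes did. CDH1, the epithelial cadherin, rose under OTX-015 from 101 to 242 FPKM with the vector and from 105 to 274 with wtBRCA1 (1.31 ± 0.25 log2, SE, limma adjusted p = 0.022). LSR, a tricellular junction receptor, rose for line (1.05 log2) and for OTX-015 (1.14). The adhesion receptor ADGRG1 rose in the wtBRCA1 line (1.64 log2) and the claudin CLDN3 fell (-2.01). SPRR1A, a cornified envelope precursor, was at 5.61 and 6.23 FPKM under DMSO and listed at 0 in both OTX-015 libraries.

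Under DMSO, 6 of the 10 factors were 2-fold apart between the lines, against 26.5% of all genes kept. TP63, GRHL2 and ELF3 were higher in the wtBRCA1 line, and GATA3, FOXA1 and ELF5 were lower. Under OTX-015 this held for 1 of 10, ELF5, against 27.7% of genes, with ELF3 and SOX9 just short of the limit at -0.99 log2 each. The comparison of the lines under DMSO and that under OTX-015 share no library, and the difference between these counts was not tested. With the vector 7 of 10 factors were lower under OTX-015 (46.2% of all genes) and 4 were 2-fold apart (25.7%), ELF3 upwards and FOXA1, ESR1 and EHF downwards. With wtBRCA1 9 of 10 were lower (47.4%). TP63, SOX9 and EHF were lower there by 2-fold or more, 3 of 10 against 13.4% of genes. No factor was 2-fold higher, and 26.4% of genes were 2-fold apart either way. The median over the 10 was -0.38 log2 with the vector and -0.69 with wtBRCA1, and 0 over all genes kept in each. The wtBRCA1 DMSO library enters both the line comparison under DMSO and the OTX-015 comparison with wtBRCA1, so these 2 sets of values are not independent.

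Among 60 other transcription factors of epithelia, 12 were under 1 FPKM in all 4 libraries, among them the progesterone receptor gene PGR and the neural crest factor SOX10. Of 48 tested for line, 4 rose, 3 fell and 41 did not pass, with a median of 0.38 log2. Over all genes kept 4.75% rose and 3.34% fell, with a median of 0.05. The helix-loop-helix inhibitors split: ID4 rose by 2.20 log2 (0.753 and 0.252 to 5.71 and 5.87 FPKM), while ID1 fell by 2.24 (59.3 and 71.5 to 14.7 and 11.5). FOXC1, a forkhead factor of basal-like tumours, rose by 1.78 log2, and FOXP1 rose from listed values of 0 in both vector libraries to 7.98 and 2.65 FPKM. As for TP63, a listed 0 for FOXP1 need not mean absence. In the vector DMSO and OTX-015 libraries 83 and 138 protein-coding genes were listed at 0 that reached 5 FPKM or more elsewhere. ID4 and FOXP1 were kept only through the wtBRCA1 libraries. GATA2, a relative of GATA3, was lower by -1.98 log2, at 19.8 and 15.1 FPKM with the vector and 5.21 and 2.47 with wtBRCA1. GRHL3, a relative of GRHL2, was lower by -1.69 log2 where GRHL2 was higher, at 6.89 and 3.91 FPKM with the vector and 0.92 and 0.936 with wtBRCA1. Under OTX-015 1 of 48 fell, the homeobox factor PITX1 (-1.30 ± 0.31 log2, SE, limma adjusted p = 0.0425), and none rose, with a median of -0.39. Over all genes kept 2.58% fell and 3.57% rose, with a median of 0.03. PITX1 was at 42.2 and 15.2 FPKM with the vector and 82.4 and 35.6 with wtBRCA1.

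**Figure D4:**
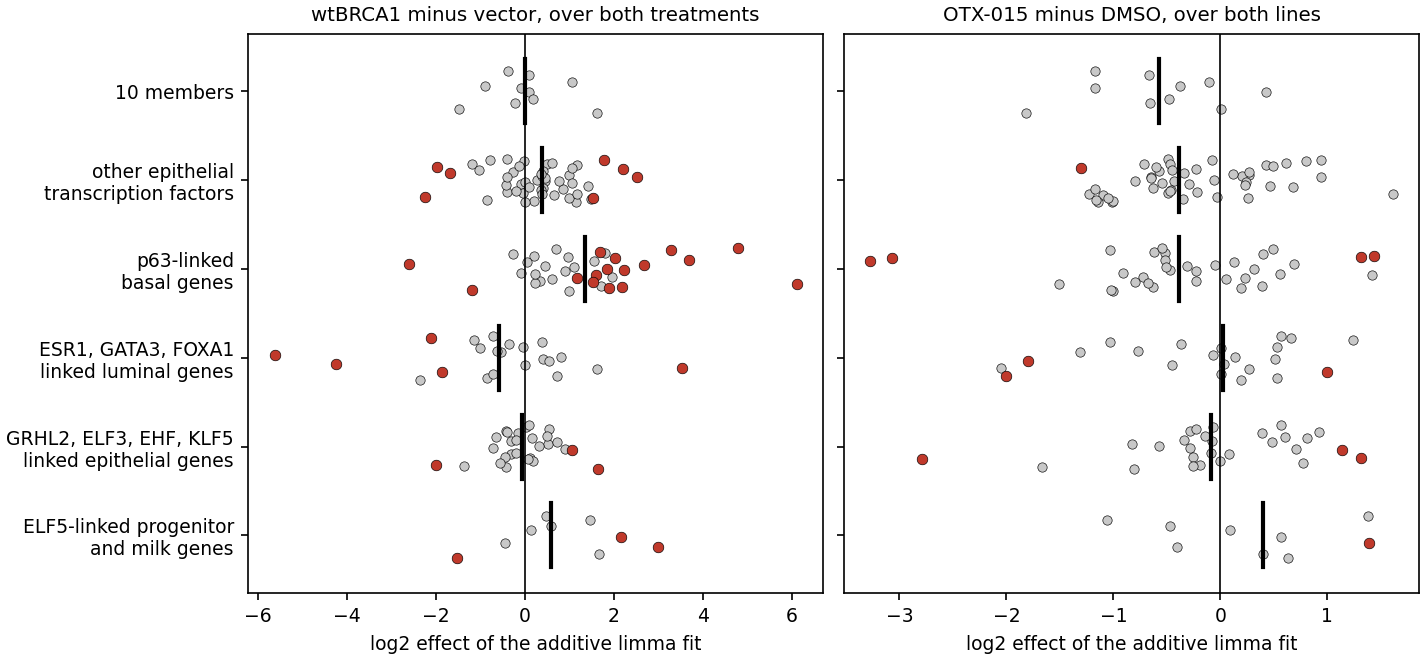
Log2 effect of the additive limma fit for line (left) and OTX-015 (right), 1 point per gene, for the 10 factors and 5 lists, with a black bar at the median and red points past an adjusted p of 0.05. None of the 10 factors is red, and the p63-linked genes have 14 red points to the right of 0 for line.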

How the data were processed

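Poly(A)-selected RNA was sequenced from 1 library per group, 4 in all, after directional library preparation, per the labels' protocols. The authors computed and deposited FPKM values per gene, with hg38 as the build and TopHat2 and Cufflinks as the tools, per the submitters' processing notes. Versions, annotation, use of strand and scaling between libraries are not given in the sources used here. Of 60487 gene identifiers 94.2% were in GENCODE 29, which gave types and coordinates. Dropped were 7088 short structural RNA genes, and 75 repeated symbols were summed. Genes at 1 FPKM or more in at least 1 library (18304) were analysed as log2(FPKM + 1) with limma 3.58.1 (R 4.3.3), with line and treatment as terms, the mean-variance trend and Benjamini-Hochberg adjustment over all genes kept. Each gene then has 1 residual degree of freedom. The factors and lists were chosen with earlier results of these data known. From each list up to 3 genes past the threshold were named per effect and direction, with KRT5, KRT14, KRT8, KRT18 and KRT19. Other genes named for being low were chosen after their values were seen. Promoters are from RefSeq, where 8 of 10 factors had an entry (not GRHL2 and SOX9). Alternatives changed the pseudocount, filter, scaling, trend, robustness and model terms. Python 3.11.15 with pandas 2.3.3, numpy 2.4.6 and matplotlib 3.10.9 was used.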

Additional observations from a re-analysis of the deposited data

Results flagged for a closer look

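Opposite OTX-015 differences in the 2 lines, at least 1 log2 unit apart, were seen for 3 of the 10 factors and for 14% of all genes kept. The response in wtBRCA1 cells minus that in vector cells was -2.14 log2 for ELF3, 1.82 for FOXA1 and -1.26 for GRHL2. Seen as line differences that turned between DMSO and OTX-015, 3 of 10 factors and 13.6% of all genes did so: ELF3 (-2.14), FOXA1 (1.82) and SOX9 (-1.20). Each rests on 1 library per group, and the differences were not tested.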

How the results depend on the processing

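No factor was called for line or for OTX-015 in 8 of the 9 alternatives. With no filter on low values 1 was called for line (GRHL2, higher) and 1 for OTX-015 (EHF, lower), in a fit where limma warned that most residual variances were 0. The 1 factor 2-fold apart in both line comparisons, ELF5, became 0 when the pseudocount was 5 and 0 when the filter was 5 FPKM. For OTX-015 the count was 2 with a pseudocount of 0.1. The added factor was TP63, whose vector values were only 0.147 FPKM under DMSO and 0 under OTX-015. Signs turned for small effects only: the line effect of ESR1 was -0.071 after quantile normalization, and the OTX-015 effect of ELF5 was -0.23 when the pseudocount was 0.1 and -0.035 under median-of-ratios rescaling. The cause of these changes was not tested.

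Calls over all genes moved far more. For line they went from 1480 to 819 with a pseudocount of 5, 802 at a filter of 5, 3801 with no filter, 788 after quantile normalization, 155 without the trend and 58 without the treatment term. For OTX-015 they went from 1125 to 714 and 395 with pseudocounts of 0.1 and 5, 512 at a filter of 5, 3609 with no filter, 463 and 163 after the 2 scalings, 4 without the trend and 1 without the line term. Of the 34 list calls for line 6 were kept without the trend and 3 without the treatment term. Of the 13 for OTX-015 none was kept in these 2 settings, 1 after quantile normalization, 3 with a pseudocount of 5, and 4 each at a filter of 5 and under median-of-ratios rescaling. The OTX-015 effect is already compared within lines, and the fit without the line term is its unpaired counterpart. Leaving out a library leaves no residual degree of freedom: the effect is then the remaining pair's difference, given for every factor above.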
